A study of Mus musculus with 40 samples.

Results

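The response of mouse liver to CDDO-Im at 30 μmol/kg was compared between mice without Nrf2 and mice with it. Of the 40 arrays of the series, the comparison used 16, with 4 mice in each of 4 groups, and it covered all 9695 genes that were tested. The 4 groups were Nrf2-null mice given 30 μmol/kg CDDO-Im, Nrf2-null mice given vehicle, Wt mice given 30 μmol/kg CDDO-Im, and Wt mice given vehicle. All 16 were male C57BL/6J mice, 12 weeks old, dosed by gavage 3 times within 5 days, and the liver of each was frozen 24 h after the last dose and put on its own Affymetrix array. The vehicle, which every mouse of these groups received, was a mixture of Cremophor-EL, DMSO and PBS. The Nrf2-null mice descended from heterozygous breeders on the same C57BL/6J background and lacked Nrf2 in the whole body, so a value of the liver is not that of hepatocytes alone. Levels are log2 GCRMA intensities, on which 1 unit is a 2-fold difference, and very low levels carry little signal. The difference in response is the change from vehicle in Wt minus the change from vehicle in Nrf2-null, so a positive value means a larger rise, or a smaller fall, in Wt liver. A gene is said to have changed, or to be called, when its limma p, adjusted by Benjamini-Hochberg over all genes, was under 0.05.

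Nrf2 is a transcription factor that Keap1 holds in the cytoplasm and passes on to the proteasome. CDDO-Im, a synthetic oleanane triterpenoid, is an electrophile that disables Keap1. Nrf2 then escapes breakdown and, with a small Maf protein as partner, switches on genes that carry its recognition site, the antioxidant response element. In liver its best known targets reduce quinones and aldehydes, attach glutathione or glucuronate to foreign compounds, supply the thioredoxin system and export the conjugates.

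The labels matched the transcript of the deleted gene on 1 probe set of Nfe2l2, which encodes Nrf2. It read 2.78 to 3.09 in the Nrf2-null CDDO-Im mice and 2.72 to 3.01 in the Nrf2-null vehicle mice, against 10.94 to 11.13 in the Wt CDDO-Im mice and 11.07 to 11.73 in the Wt vehicle mice. The genotypes did not overlap there in the vehicle mice (exact two-sided permutation test, p = 0.029, the smallest that 4 against 4 allow), while a second probe set overlapped (exact p = 0.11). Hepatocyte markers summed to log2 18.04 to 18.39 in all 16 livers. The array medians over the kept probe sets were lower in the Wt CDDO-Im mice (7.50 to 7.65) than in the Nrf2-null CDDO-Im (7.75 to 7.84), Nrf2-null vehicle (7.71 to 7.85) and Wt vehicle mice (7.71 to 7.77). Within each genotype the animal numbers of CDDO-Im and vehicle mice came from separate ranges, and number range and treatment cannot be told apart. Transcripts of exocrine pancreas stood out in Nrf2-null CDDO-Im replicates 1 and 4, where its markers summed to 14.33 and 16.33, against 8.78 to 11.08 in the other 14 livers. Nrf2-null vehicle replicate 1 stood apart by a score of clock genes (evening minus morning genes), at 3.00 against −3.65 to −2.78 in the other 3 mice of its group.

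The response to CDDO-Im differed between the genotypes for 1154 genes (11.9% of those tested). The difference was positive for 173 (1.78%) and negative for 981 (10.1%). It was at least 1 log2 unit in size for 63 of the positive and 128 of the negative genes. The median over all genes was −0.17, so the values below are to be read relative to that shift. After each array was centred on its median, 617 genes were called (6.36%), of which 319 were positive (3.29%) and 298 negative (3.07%), and positive genes made up 51.7% of the calls instead of 15.0%. Of the 173 positive genes, 170 were called in both scalings, whereas 683 of the 981 negative calls ended on centring. Without both mice with pancreas transcripts the count was 513 (93 positive, 420 negative). All 4 Wt CDDO-Im mice lay above the other 12 for 170 of all genes (1.75%) and below them for 982 (10.1%).

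By the count of called genes the contrast lay mainly in Wt liver. CDDO-Im changed 17 genes in Nrf2-null liver (0.175%), 7 of them upward (0.0722%) and 10 downward (0.103%). In Wt liver it changed 2291 genes (23.6%), 272 upward (2.81%) and 2019 downward (20.8%). Centring gave 34 genes in Nrf2-null liver and 1181 in Wt liver, where 53.9% instead of 11.9% were then upward. At an unadjusted p under 0.05 the Nrf2-null count was 976, and the adjusted count was 8 without Nrf2-null CDDO-Im replicate 4, 30 without its replicate 3, and 40, 26 and 58 without Nrf2-null vehicle replicates 1, 2 and 4. Of the 173 positive genes, 117 rose in Wt liver and were not called in Nrf2-null liver, 4 rose in Wt and fell in Nrf2-null liver, 4 fell in Nrf2-null liver only, and 48 were called in neither genotype alone. Of the 981 negative genes, 843 fell in Wt liver only, 3 fell in Wt and rose in Nrf2-null liver, 4 rose in Nrf2-null liver only and 131 were called in neither. By size the Nrf2-null change exceeded the Wt change for 54 of the 173 positive genes (31.2%) and 106 of the 981 negative genes (10.8%). By value 151 of the 173 rose in Wt and fell in Nrf2-null liver, and 853 of the 981 did the reverse.

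**Figure D1:**
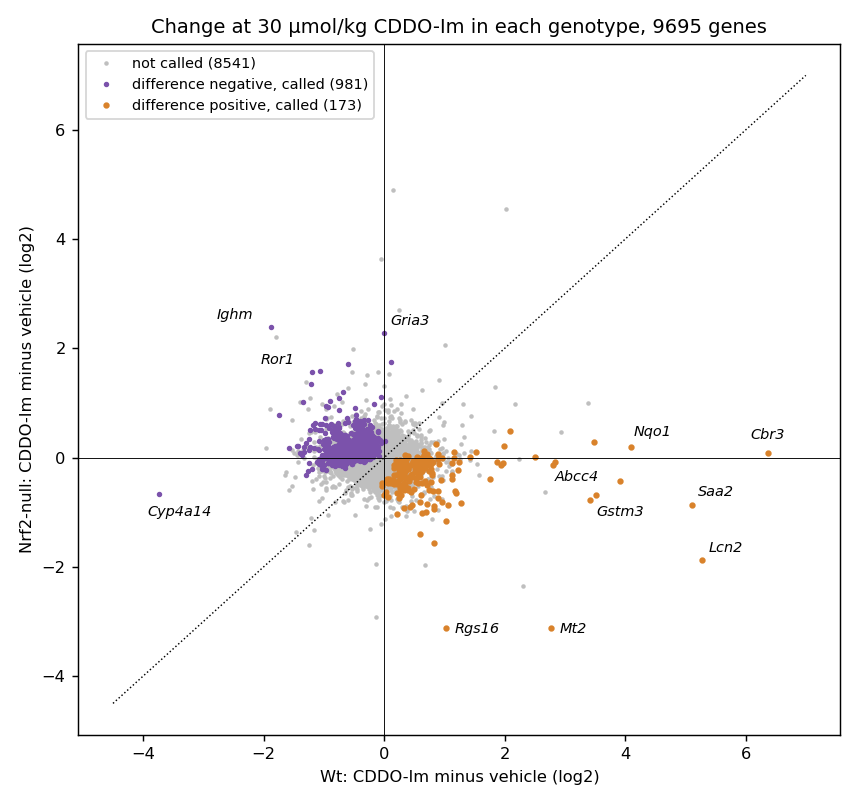
Each point is 1 of 9695 genes, with the log2 change of treated against vehicle mice, Wt across and Nrf2-null upward, and on the dotted line both changes are equal. The 173 genes with a called positive difference (orange) lie below the line and reach a Wt change of 6.38 for Cbr3, and the 981 with a called negative difference (purple) lie above it.

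The vehicle livers took part in some of these differences. With vehicle, 1049 genes differed between Nrf2-null and Wt liver (10.8%), 567 higher (5.85%) and 482 lower (4.97%) in Nrf2-null liver. With CDDO-Im 3736 did (38.5%), 3070 higher (31.7%) and 666 lower (6.87%). Centring put the higher share at 32.3% instead of 54.1% with vehicle and at 39.2% instead of 82.2% with CDDO-Im. Without Wt vehicle replicate 3 the vehicle count was 581. Among the 173 positive genes, 93 were not called between the vehicle groups and were lower in Nrf2-null than in Wt liver with CDDO-Im. Another 35 were higher in Nrf2-null than in Wt liver with vehicle and not called with CDDO-Im, and 21 were lower in Nrf2-null liver under both treatments. Among the 981 negative genes, 789 were not called with vehicle and were higher in Nrf2-null than in Wt liver with CDDO-Im.

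Of 76 genes in 6 lists of detoxification enzymes and transporters, 64 were tested, and 19 were called positive and 0 negative, against 1.78% and 10.1% of all genes. With array weights 21 were positive and 2 negative, and without Nrf2-null vehicle replicate 1 these counts were 19 and 2. Differences of the members ran from −0.66 to 6.29, and by value 11 of 16 glutathione S-transferases and 6 of 9 transporters were positive. Their median difference was 0.37, against −0.17 over all genes. In Nrf2-null liver 0 of the 64 changed, against 0.175% of all genes, and their median change was 0.01. In Wt liver 32 rose and 1 fell, against 2.81% and 20.8% of all genes, with a median change of 0.35. With vehicle, 28 were lower and 0 higher in Nrf2-null than in Wt liver, against 4.97% and 5.85% of all genes. Without both mice with pancreas transcripts 14 were positive and 0 negative, at a median of 0.37.

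Of 17 genes listed under quinone, carbonyl and epoxide reduction, 7 had a positive difference and 0 a negative one. The list also holds enzymes that are not reductases, such as carboxylesterases and an epoxide hydrolase. Nqo1, the NAD(P)H quinone reductase used as a standard marker of Nrf2 activity, read 3.22, 3.74, 3.17 and 3.28 in Nrf2-null CDDO-Im mice and 3.22, 3.32, 2.88 and 3.18 in Nrf2-null vehicle mice. In Wt liver it read 9.34, 8.68, 9.27 and 7.97 with CDDO-Im, against 4.98, 4.43, 4.69 and 4.79 with vehicle. The Wt CDDO-Im mice lay above all others, and the Nrf2-null levels were near the floor of the array in both treatments. The change of Nqo1 was 0.20 in Nrf2-null liver (adjusted p = 0.91) and 4.09 in Wt liver, and the difference was 3.89 (SE 0.45, adjusted p = 1.6e-06).

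Cbr3, a carbonyl reductase, had the largest difference of the detoxification genes. It read 4.01, 4.02, 4.00 and 4.21 in Nrf2-null CDDO-Im mice and 3.87, 4.01, 4.01 and 4.00 in Nrf2-null vehicle mice. The Wt CDDO-Im mice read 10.79, 10.42, 10.91 and 9.41, against 4.01, 4.00, 4.01 and 4.01 in the Wt vehicle mice. The signal was thus at one low level in 3 groups and high in the fourth, a difference of 6.29 (SE 0.57, adjusted p = 1.5e-08). Cbr1, the neighbouring and more widely expressed carbonyl reductase, read 9.71 to 10.84 in Nrf2-null CDDO-Im and 10.12 to 10.73 in Nrf2-null vehicle mice, against 11.72 to 12.52 in Wt CDDO-Im and 10.17 to 10.54 in Wt vehicle mice. Unlike Cbr3 it had a clear level in every liver, and its vehicle mice overlapped between the genotypes (difference 1.95, adjusted p = 0.00054).

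Of the other members of this list, Ces1g, a carboxylesterase, read 8.27 to 8.48 in Nrf2-null CDDO-Im and 8.22 to 9.18 in Nrf2-null vehicle mice, against 13.60 to 13.79 in Wt CDDO-Im and 12.28 to 12.80 in Wt vehicle mice. The genotypes were already apart with vehicle, by −3.81 (Nrf2-null minus Wt), and the response added a difference of 1.52 (adjusted p = 0.0072). Ephx1, the microsomal epoxide hydrolase, had a difference of 0.67 (adjusted p = 0.030) that was not called without any 1 of 6 mice.

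Of 16 glutathione S-transferases, 5 had a positive difference and 0 a negative one, with a median of 0.39. Gstm3 read 8.15, 8.67, 6.42 and 8.18 in Nrf2-null CDDO-Im mice and 8.65, 8.88, 8.18 and 8.80 in Nrf2-null vehicle mice. It read 14.26, 13.81, 14.12 and 13.23 in Wt CDDO-Im mice, against 10.37, 10.10, 10.72 and 10.56 in Wt vehicle mice. It was lower in Nrf2-null mice than in any Wt vehicle mouse, whichever treatment they had, and its difference was 4.19 (SE 0.49, adjusted p = 1.8e-06). Gstm1 had a difference of 2.15 (SE 0.31, adjusted p = 4.1e-05), and its 4 probe sets, all called, ranged from 2.15 to 3.02. Gstm2 and Gstm4 followed with 1.43 (adjusted p = 0.013) and 1.41 (adjusted p = 0.0098). The mu-class genes are close copies, and a probe set can pick up transcripts of its neighbours. Gsta2, of the alpha class, read 9.39 to 10.92 in Nrf2-null CDDO-Im and 9.28 to 10.10 in Nrf2-null vehicle mice, against 14.32 to 14.81 in Wt CDDO-Im and 11.66 to 12.97 in Wt vehicle mice, a difference of 1.59 (adjusted p = 0.033). Its call ended without any 1 of 7 mice.

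**Figure D2:**
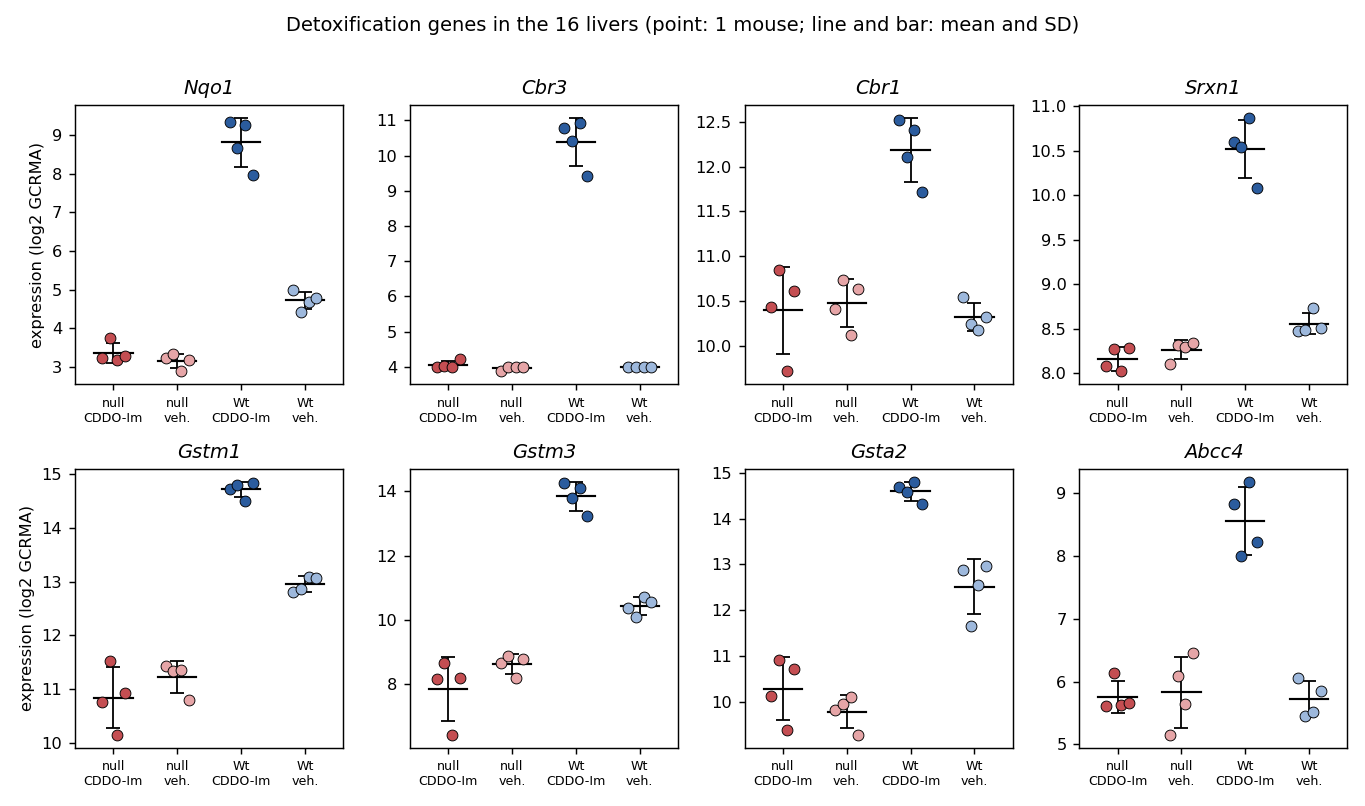
Levels of 8 detoxification genes (log2 GCRMA, vertical axis) in the 16 livers, by group from left to right, with 1 point per mouse and the mean and SD of 4 mice as line and bar. For each gene the 4 Wt CDDO-Im mice lie above the other 12, as for 1.75% of all genes. Cbr3 stays between 3.87 and 4.21 in the other groups.

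The enzymes of thiol regeneration followed. Of 10 genes of glutathione and thioredoxin supply, 4 had a positive difference and 0 a negative one. Srxn1 and Txnrd1 are counted both here and under quinone, carbonyl and epoxide reduction. Srxn1, sulfiredoxin, which restores oxidized peroxiredoxins, read 8.08, 8.27, 8.02 and 8.28 in Nrf2-null CDDO-Im mice and 8.10, 8.32, 8.30 and 8.34 in Nrf2-null vehicle mice. It read 10.60, 10.54, 10.87 and 10.08 in Wt CDDO-Im mice, against 8.48, 8.49, 8.73 and 8.51 in Wt vehicle mice. The Wt CDDO-Im mice stood alone, more than 1 unit above every other liver, and the difference was 2.07 (SE 0.30, adjusted p = 4.1e-05). Txnrd1, thioredoxin reductase, had a difference of 0.90 (SE 0.14, adjusted p = 6.7e-05), and Gsr, glutathione reductase, one of 0.80 (adjusted p = 0.0012). Txn1, thioredoxin itself, differed by 0.37 (adjusted p = 0.0092), which was not called without both mice with pancreas transcripts (adjusted p = 0.064). Both subunits of the enzyme that begins glutathione synthesis were not called, Gclc at 0.24 (95% interval −0.36 to 0.84) and Gclm at 0.09. Pgd, of the pentose phosphate route to NADPH, differed by 0.96 (adjusted p = 0.027), a call that ended without any 1 of 4 mice, and it was the single gene called among 6 of NADPH supply.

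For conjugation with glucuronate, 2 of 8 genes had a positive difference, and 5 after centring. Ugdh, which makes UDP-glucuronate, differed by 0.83 (adjusted p = 0.0081). Ugt2b36, a UDP-glucuronosyltransferase, differed by 0.34 (adjusted p = 0.022), and this call ended without Nrf2-null vehicle replicate 3.

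Of 9 transporters that export conjugates, 2 had a positive difference. Abcc4, an exporter on the blood side of the hepatocyte, read 5.61, 6.13, 5.62 and 5.66 in Nrf2-null CDDO-Im mice and 5.15, 6.09, 5.65 and 6.45 in Nrf2-null vehicle mice. The Wt CDDO-Im mice read 8.83, 7.99, 9.18 and 8.22, against 6.06, 5.46, 5.52 and 5.85 in Wt vehicle mice. The 3 other groups overlapped, and the difference was 2.91 (SE 0.43, adjusted p = 4.1e-05). Abcc2, the exporter into bile, changed by −0.44 in Nrf2-null liver (adjusted p = 0.078) and by 0.78 in Wt liver, a difference of 1.22 (SE 0.16, adjusted p = 7.7e-06). Abcc3 was not called (0.74, adjusted p = 0.11). Among 10 genes of Nrf2 and its partners, Mafg, a small Maf protein, had a positive difference (0.49, adjusted p = 0.040) that came from a fall of 0.53 in Nrf2-null liver and ended without any 1 of 11 mice, and another probe set of Mafg gave 0.09. Of 11 genes of iron and heme, Blvrb, a biliverdin reductase, differed by 1.16 (adjusted p = 0.0023) and Fth1, ferritin heavy chain, by 0.25 (adjusted p = 0.026, a call that ended without any 1 of 3 mice, with another probe set at 0.13). Hmox1, heme oxygenase, was not called (0.38, 95% interval −0.67 to 1.42).

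The antioxidant response element was looked up in the promoters of these genes, since it is the site that Nrf2 binds. RefSeq windows of the mouse assembly GRCm38.p6, from 250 bases before to 50 after each start, were searched on both strands for the core TGACNNNGC. Of the 19 detoxification genes with a positive difference, 18 had a window and 6 of these held the motif: Srxn1, Txnrd1, Pgd, Ugdh, Abcc2 and Abcc4. The windows of Nqo1 and Gsta2 held 0, although the study cites reports of working Nrf2 sites in both promoters. The search cannot find a site outside the window or one that departs from this core. The motif stood in 22.5% of 138 genes with a positive difference, 16.6% of 799 with a negative one, 17.1% of all 7950 tested genes with a window and 12.4% of all 32851 windows. The stretches around 5 matches are shown to place the motif for genes whose values are given above, 5′ to 3′ on the strand of the gene, with the matched bases in capitals. Srxn1 lies at chr2:152105522-152105573 (+), Txnrd1 at chr10:82859084-82859152 (+), Ugdh at chr5:65435936-65436004 (−), Abcc2 at chr19:43782180-43782248 (+) and Abcc4 at chr14:118706206-118706274 (−).
Srxn1: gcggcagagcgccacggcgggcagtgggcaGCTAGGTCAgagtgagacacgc
Txnrd1: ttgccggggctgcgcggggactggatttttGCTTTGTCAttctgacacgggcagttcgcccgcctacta
Ugdh: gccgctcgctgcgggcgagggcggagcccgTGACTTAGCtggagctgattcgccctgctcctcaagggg
Abcc2: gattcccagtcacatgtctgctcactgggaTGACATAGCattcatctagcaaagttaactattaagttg
Abcc4: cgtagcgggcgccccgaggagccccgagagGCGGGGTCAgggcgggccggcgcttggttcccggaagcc
The matches shown for Abcc2 and Ugdh read along the gene and those shown for Srxn1, Txnrd1 and Abcc4 on the opposite strand. Ugdh held another match in the same window, on the opposite strand. Abcc4 held another in the window of a different start, along the gene. A match is a description of the letters, and no binding was measured.

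The largest difference of all genes was that of an acute phase transcript, and this group varied more between mice. Of 18 acute phase genes, which the liver makes under inflammatory cytokines, 4 had a positive and 0 a negative difference, with a median of 0.56. These counts stand against 1.78% and 10.1% of all genes. In Wt liver 8 of the 18 rose, against 2.81% of all genes. Without both mice with pancreas transcripts 0 of the 18 were called, at a median of 0.55. With only the 16 arrays of the 4 groups in the fit, 6 were positive and 0 negative. Lcn2, lipocalin 2, which binds bacterial iron carriers, read 4.89, 5.64, 4.81 and 5.01 in Nrf2-null CDDO-Im mice and 7.91, 7.65, 6.48 and 5.79 in Nrf2-null vehicle mice. It read 10.38, 11.86, 12.09 and 12.13 in Wt CDDO-Im mice, against 6.34, 6.74, 5.96 and 6.31 in Wt vehicle mice. The Wt CDDO-Im mice were the highest and the Nrf2-null CDDO-Im mice the lowest, below all 4 Nrf2-null vehicle mice. The difference was 7.15 (SE 1.91, adjusted p = 0.015), made up of −1.87 in Nrf2-null and 5.28 in Wt liver. It stayed called without each single mouse but not without both mice with pancreas transcripts (adjusted p = 0.056).

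Saa2, a serum amyloid A, read 8.38, 8.99, 8.23 and 8.93 in Nrf2-null CDDO-Im mice and 8.75, 11.78, 8.98 and 8.46 in Nrf2-null vehicle mice. It read 14.09, 14.83, 14.87 and 15.79 in Wt CDDO-Im mice, against 9.20, 11.18, 8.98 and 9.77 in Wt vehicle mice. One mouse of each vehicle group was high, and the difference of 5.97 (SE 1.73, adjusted p = 0.023) was not called without Nrf2-null vehicle replicate 2. Saa1 differed by 4.20 (adjusted p = 0.042) and was not called without any 1 of 11 mice or after centring (adjusted p = 0.051). Orm2, an orosomucoid, differed by 4.34 (adjusted p = 0.038) and was not called without any 1 of 13 mice. Its SD was 0.20 to 0.57 in the 4 groups compared. It was 1.93 in Wt mice at 10 μmol/kg and 1.78 in Nrf2-null mice with D3T, groups that the pooled fit includes. Saa3 (1.03), Orm1 (0.33), Orm3 (2.27) and Hp, haptoglobin (0.37), were not called. Markers of neutrophils and monocytes summed to log2 7.37 to 8.30 in Nrf2-null CDDO-Im, 6.03 to 8.55 in Nrf2-null vehicle, 8.44 to 9.75 in Wt CDDO-Im and 5.79 to 7.18 in Wt vehicle livers. Of the 6 markers 3 were tested, and 2 of these rose in Wt liver, S100a8 by 3.39 (adjusted p = 0.0018) and S100a9 by 2.94 (adjusted p = 0.0034). In Nrf2-null liver 0 of these markers changed. Over all genes 2.81% rose in Wt liver and 0.175% changed in Nrf2-null liver. The differences in response of these 2 markers were not called, at 2.38 for S100a8 (adjusted p = 0.14) and 2.48 for S100a9 (adjusted p = 0.10). The part of neutrophils and monocytes in the acute phase values was not tested. In whole liver, fewer cells of a type and less RNA per cell cannot be told apart.

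Among the macrophage markers, Marco had a positive difference. Marco, a scavenger receptor of macrophages, read 2.27, 2.30, 2.37 and 4.32 in Nrf2-null CDDO-Im mice and 2.27, 2.31, 2.28 and 3.25 in Nrf2-null vehicle mice. It read 5.55, 5.53, 6.75 and 6.24 in Wt CDDO-Im mice, against 3.25, 2.27, 2.31 and 2.27 in Wt vehicle mice. All 4 Wt CDDO-Im mice were above the other 12, as for 1.75% of all genes, and most of the 12 lay at the floor. The difference of Marco was 3.20 (SE 0.77, adjusted p = 0.0074). Of the 8 Kupffer cell and macrophage markers it was the 1 called in either direction, a share similar to the 11.9% of all genes. Clec4f, which defines mouse Kupffer cells, differed by −0.14 (adjusted p = 0.87), Cd5l by 0.33 and Csf1r by −0.25. The markers summed to 13.80 to 14.02 in Nrf2-null CDDO-Im, 13.27 to 13.97 in Nrf2-null vehicle, 13.56 to 13.87 in Wt CDDO-Im and 13.16 to 13.81 in Wt vehicle livers. Pla2g7, a phospholipase that breaks down platelet-activating factor, differed by 2.08 (SE 0.37, adjusted p = 0.0005) and Clec4n, a C-type lectin, by 1.78 (adjusted p = 0.0054, with another probe set at 1.18 not called). Both were singled out after their values were seen.

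Of the metallothioneins, which bind zinc and copper, Mt2 had a positive difference with a wide spread among Nrf2-null vehicle mice. Mt2 read 7.62, 8.25, 7.28 and 8.48 in Nrf2-null CDDO-Im mice and 11.75, 14.13, 11.33 and 6.90 in Nrf2-null vehicle mice. It read 9.05, 9.99, 9.54 and 10.39 in Wt CDDO-Im mice, against 7.26, 5.76, 7.79 and 7.10 in Wt vehicle mice. The Nrf2-null vehicle mice spread from 6.90 to 14.13, and the Wt CDDO-Im mice lay above all Wt vehicle mice. The change was −3.12 in Nrf2-null liver (adjusted p = 0.39) and 2.76 in Wt liver (adjusted p = 0.14), and the difference of 5.88 (SE 1.92, adjusted p = 0.042) was not called without any 1 of 13 mice or after centring (adjusted p = 0.053). Mt1 was not called (4.66, adjusted p = 0.054). Rgs16, a regulator of G protein signalling, also varied, with 11.86, 5.04, 10.35 and 7.07 in Nrf2-null vehicle mice, and its difference of 4.14 (adjusted p = 0.046) was not called without any 1 of 12 mice. Its 2 other probe sets gave 5.36 and 1.39. The evening clock genes had a median difference of 1.15 and the morning clock genes one of −0.99, with 0 of 8 and 0 of 5 called. Dbp, a clock output factor, had a difference of 1.81 (adjusted p = 0.53), and without Nrf2-null vehicle replicate 1 it was −0.11.

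**Figure D3:**
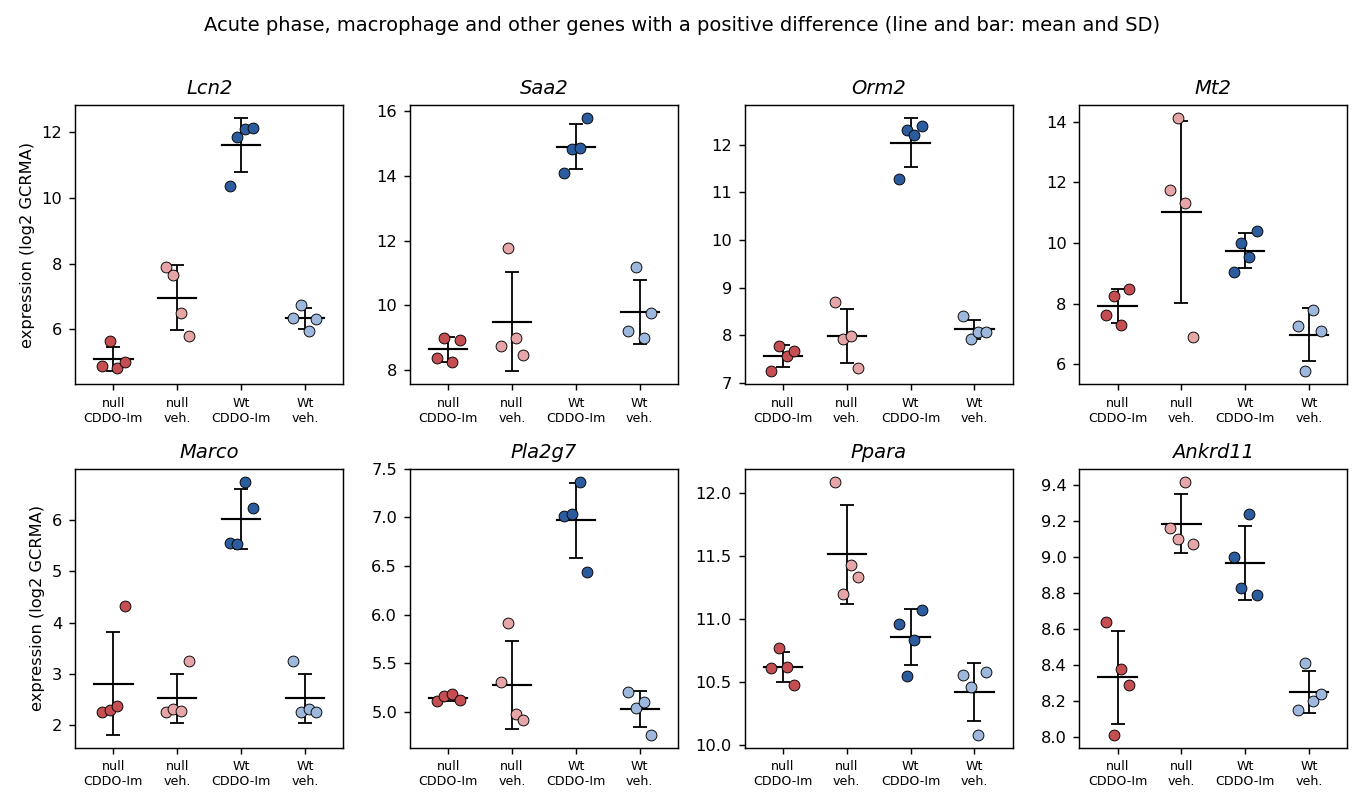
Levels of 8 genes with a positive difference (log2 GCRMA, vertical axis) in the 16 livers, by group from left to right, with 1 point per mouse and the mean and SD of 4 mice as line and bar. Lcn2, Saa2, Orm2, Marco and Pla2g7 are highest in the 4 Wt CDDO-Im mice, whereas Mt2, Ppara and Ankrd11 are highest in Nrf2-null vehicle mice.

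Regulators of lipid use included 3 genes with a positive difference, against 1.78% of all genes. Of the 10 such regulators tested 0 had a negative one (median 0.48), against 10.1% of all genes. In either genotype alone 0 of the 10 changed, against 0.175% of all genes in Nrf2-null and 23.6% in Wt liver. Ppara, the receptor that drives fatty acid oxidation, read 10.61, 10.77, 10.62 and 10.48 in Nrf2-null CDDO-Im mice and 12.09, 11.20, 11.43 and 11.33 in Nrf2-null vehicle mice. It read 10.96, 10.55, 10.83 and 11.07 in Wt CDDO-Im mice, against 10.56, 10.46, 10.08 and 10.58 in Wt vehicle mice. The Nrf2-null vehicle mice were above all others, and the difference of 1.33 (SE 0.31, adjusted p = 0.0062) was made up of −0.89 in Nrf2-null liver (adjusted p = 0.066) and 0.43 in Wt liver (adjusted p = 0.15). Its other 2 probe sets, at 0.43 and 0.44, were not called. Lpin2, a phosphatidate phosphatase, differed by 1.05 (adjusted p = 0.0088), and its 4 probe sets ranged from 1.05 to 2.86. Klf15 differed by 0.78 (adjusted p = 0.042, not called without any 1 of 10 mice). Lpin1 (1.93, adjusted p = 0.057), Klf13 (0.43) and Ppargc1b (0.15) were not called.

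Among enzymes of lipid metabolism the largest difference in size was that of 1 gene of fatty acid oxidation. Cyp4a14, a fatty acid hydroxylase and classical target of Ppara, read 13.39, 13.56, 13.74 and 13.34 in Nrf2-null CDDO-Im mice and 14.67, 13.70, 14.54 and 13.80 in Nrf2-null vehicle mice. It read 8.32, 7.82, 9.38 and 7.90 in Wt CDDO-Im mice, against 13.13, 10.94, 11.23 and 13.04 in Wt vehicle mice. The Wt CDDO-Im mice were below the other 12, as they were for 982 of all genes (10.1%). The difference was −3.06 (SE 0.71, adjusted p = 0.0059). The gene is 1 of a family of close copies. Of 19 genes of fatty acid oxidation 0 were called positive and 3 negative, against 981 negative calls among all 9695 genes (10.1%), and by value 4 of the 19 were positive, against 2834 of all genes, and after centring Cyp4a14 alone was called. Acadvl, a mitochondrial acyl-CoA dehydrogenase (−0.35), and Slc25a20, the carnitine carrier (−0.43, not called without any 1 of 10 mice, with another probe set at −0.12), were the other 2.

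By value 0 of 17 genes of fatty acid synthesis were positive (median −0.32), against 2834 of all 9695 genes. Of the 17, 1 was called, against 11.9% of all genes. That gene was Srebf1, a transcription factor of lipid synthesis, which read 12.83, 12.74, 12.79 and 12.93 in Nrf2-null CDDO-Im mice and 13.03, 12.15, 11.20 and 11.99 in Nrf2-null vehicle mice. It read 10.82 to 11.90 in the 4 Wt CDDO-Im mice, against 11.85, 12.02, 12.06 and 13.07 in Wt vehicle mice. With CDDO-Im the genotypes did not overlap, and the difference was −1.71 (SE 0.41, adjusted p = 0.0080). Of 18 enzymes of cholesterol synthesis 0 were called, 9 were positive by value and their median was 0.04, with Lss, lanosterol synthase, at 0.47 and Cyp51 at 0.48. Of 14 genes of glucose and pyruvate control 0 were called. Igfals, the acid-labile subunit that carries Igf1 in blood, differed by −1.29 (SE 0.26, adjusted p = 0.0017). Its Wt CDDO-Im mice, at 8.49 to 8.69, were below the other 12, which read 8.87 to 9.91, as for 10.1% of all genes. Afp, the fetal albumin relative, was higher in Nrf2-null than in Wt liver with vehicle by 2.73, and differed in response by 2.12 (adjusted p = 0.0046). Its 2 other probe sets gave 0.43 and 1.06.

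A few genes rose in Nrf2-null liver. The 7 with a called rise were Gria3 (2.28), Ccl5 (1.75), Srgap3 (1.71), Ror1 (1.56), Tnik (1.12), Rpp40 (1.09) and Plxna2 (1.01), and all 7 had a called negative difference. Ror1, a receptor of Wnt ligands, read 7.10, 6.67, 6.49 and 7.67 in Nrf2-null CDDO-Im mice and 5.65, 5.13, 5.48 and 5.44 in Nrf2-null vehicle mice. It read 5.06, 5.41, 4.91 and 4.50 in Wt CDDO-Im mice, against 6.04, 6.21, 6.55 and 5.86 in Wt vehicle mice. The treated and vehicle mice did not overlap in either genotype, and they lay in opposite orders (difference −2.76, SE 0.32, adjusted p = 1.6e-06).

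Plxna2, a semaphorin receptor, read 9.70, 9.24, 9.61 and 10.33 in Nrf2-null CDDO-Im mice and 8.35, 8.83, 8.48 and 9.18 in Nrf2-null vehicle mice. It read 7.95, 7.53, 7.37 and 7.52 in Wt CDDO-Im mice, against 8.90, 9.15, 9.06 and 8.66 in Wt vehicle mice. The opposite orders were seen here too, the difference was −2.36 (adjusted p = 2.2e-06), and its 4 probe sets gave −1.77 to −2.80. Rpp40, a subunit of ribonuclease P, differed by −1.84 (adjusted p = 0.00044). Gria3, a glutamate receptor subunit, read 6.19, 6.79, 4.89 and 6.87 in Nrf2-null CDDO-Im mice and 2.71, 3.85, 2.75 and 6.30 in Nrf2-null vehicle mice, and stayed at the floor in all 8 Wt mice. Its difference of −2.29 (adjusted p = 0.012) was not called without both mice with pancreas transcripts (adjusted p = 0.078). The SD of Gria3 was 1.68 in Nrf2-null vehicle mice, against 0.28 in Nrf2-null mice at 10 μmol/kg, a group that the pooled fit includes. The 10 genes that fell in Nrf2-null liver moved by −0.37 to −0.86. The largest 2 were Ankrd11, a chromatin regulator, and Nipbl, which loads cohesin, both with probe sets that disagree in the difference of response, 1 of 7 being called for Ankrd11.

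Other large negative differences included those of an immunoglobulin and a pancreatic transcript. Ighm, the immunoglobulin mu chain, read 8.95, 7.64, 9.54 and 9.10 in Nrf2-null CDDO-Im mice and 6.83, 5.34, 7.17 and 6.35 in Nrf2-null vehicle mice. It read 6.48, 5.00, 5.75 and 4.81 in Wt CDDO-Im mice, against 10.83, 6.84, 5.54 and 6.32 in Wt vehicle mice, of which replicate 1 was high. The difference was −4.26 (SE 1.28, adjusted p = 0.028) and was not called without any 1 of 6 mice. Lymphocyte markers summed to 5.85 to 6.99 in Nrf2-null CDDO-Im, 5.72 to 6.08 in Nrf2-null vehicle, 5.70 to 5.86 in Wt CDDO-Im and 5.63 to 7.58 in Wt vehicle livers, and their part was not tested. Of 8 lymphocyte markers 1 was tested, and Cd3e, Cd3g, Cd8a, Cd79a and Nkg7 were below log2 4. Cela1, a pancreatic elastase, read 12.27, 9.64, 11.06 and 14.03 in Nrf2-null CDDO-Im mice and 10.42, 9.51, 10.42 and 10.29 in Nrf2-null vehicle mice. It read 9.02, 8.68, 8.82 and 8.95 in Wt CDDO-Im mice, against 10.04, 9.76, 10.09 and 9.84 in Wt vehicle mice. Its difference of −2.65 (adjusted p = 0.027) was −1.25 (adjusted p = 0.27) without Nrf2-null CDDO-Im replicates 1 and 4, the mice with other pancreas transcripts.

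Of the remaining genes of largest negative difference, Lama3, a laminin chain, differed by −2.52 (adjusted p = 0.016) and Dapk2, a death-associated kinase, by −1.91 (adjusted p = 0.0029). Id3, an inhibitor of helix-loop-helix factors, differed by −2.57 (adjusted p = 0.019) and was not called without Nrf2-null vehicle replicate 3 or without both mice with pancreas transcripts (adjusted p = 0.094), and Tspyl4, at −1.95 (adjusted p = 0.040), was not called without any 1 of 10 mice. Among factors of hepatocyte identity, singled out after their values were seen, Foxa1 differed by −1.79 (adjusted p = 0.010) and Hhex by −1.75 (adjusted p = 0.010). Neither was called without both mice with pancreas transcripts. Of others singled out in the same way, Foxa2 differed by −1.31. Cebpb differed in the opposite direction, by 1.31, with another probe set at 1.25. Cldn5, a tight junction protein of endothelium, differed by −1.64 (adjusted p = 0.0050) and Sparcl1, a matrix protein, by −1.59 (adjusted p = 0.0073), a call that ended without both mice with pancreas transcripts (adjusted p = 0.080). Cldn5 and Sparcl1 were also singled out after their values were seen. Endothelial markers summed to 12.47 to 12.68 in Nrf2-null CDDO-Im, 12.43 to 12.75 in Nrf2-null vehicle, 11.93 to 12.10 in Wt CDDO-Im and 12.20 to 12.41 in Wt vehicle livers. Of the 7 tested 1 was called negative, against 10.1% of all genes, and 0 after centring. By value 1 of the 7 was positive. The part of endothelial cells in these values was not tested.

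**Figure D4:**
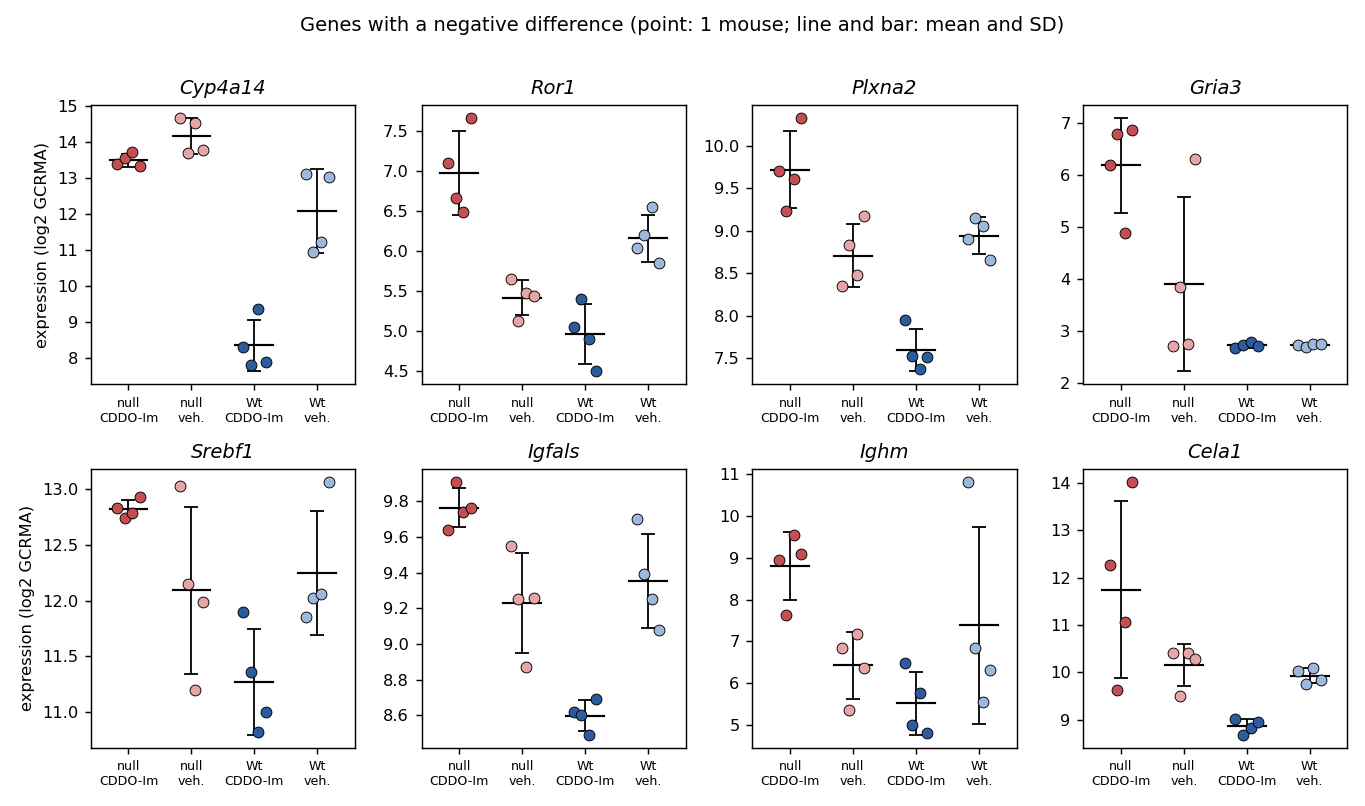
Levels of 8 genes with a negative difference (log2 GCRMA, vertical axis) in the 16 livers, by group from left to right, with 1 point per mouse and the mean and SD of 4 mice as line and bar. Cyp4a14 is lowest in the 4 Wt CDDO-Im mice, Plxna2 is highest in the 4 Nrf2-null CDDO-Im mice, Ror1 is higher in those mice than in the other groups on average, and Cela1 is high in 2 of those mice.

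The lists of basic cell machinery were read against 173 positive calls among all genes (1.78%) and 981 negative ones (10.1%). Of these negative calls 683 ended on centring. Of 21 respiratory chain subunits 9 were called negative and 0 positive, by −0.27 to −0.40, among them Cox4i1 (−0.36) and Ndufa4 (−0.30), and after centring 0 were called. Of 24 splicing and RNA-binding proteins 4 were called negative, 0 after centring. Of 13 apolipoprotein genes 3 were called negative, 0 after centring, and of 15 ribosomal proteins 2 were called negative, whereas after centring 2 were positive. Medians were −0.20 for the respiratory chain, −0.19 for splicing and RNA-binding proteins and −0.13 for apolipoproteins, against −0.17 over all genes. The median of the ribosomal proteins, at −0.02, lay further above that of all genes. For the 64 detoxification genes centring gave 23 positive and 0 negative calls. Of 15 chaperones of the endoplasmic reticulum 2 were positive, Dnajc3 (0.92, adjusted p = 0.016, with 4 other probe sets not called) and Pdia4 (0.87, adjusted p = 0.030, a call that ended without any 1 of 8 mice). Of 31 proteasome subunits 2 were positive and 1 negative, and of 15 interferon and antigen presentation genes and 10 cell cycle genes 0 were called.

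**Figure D5:**
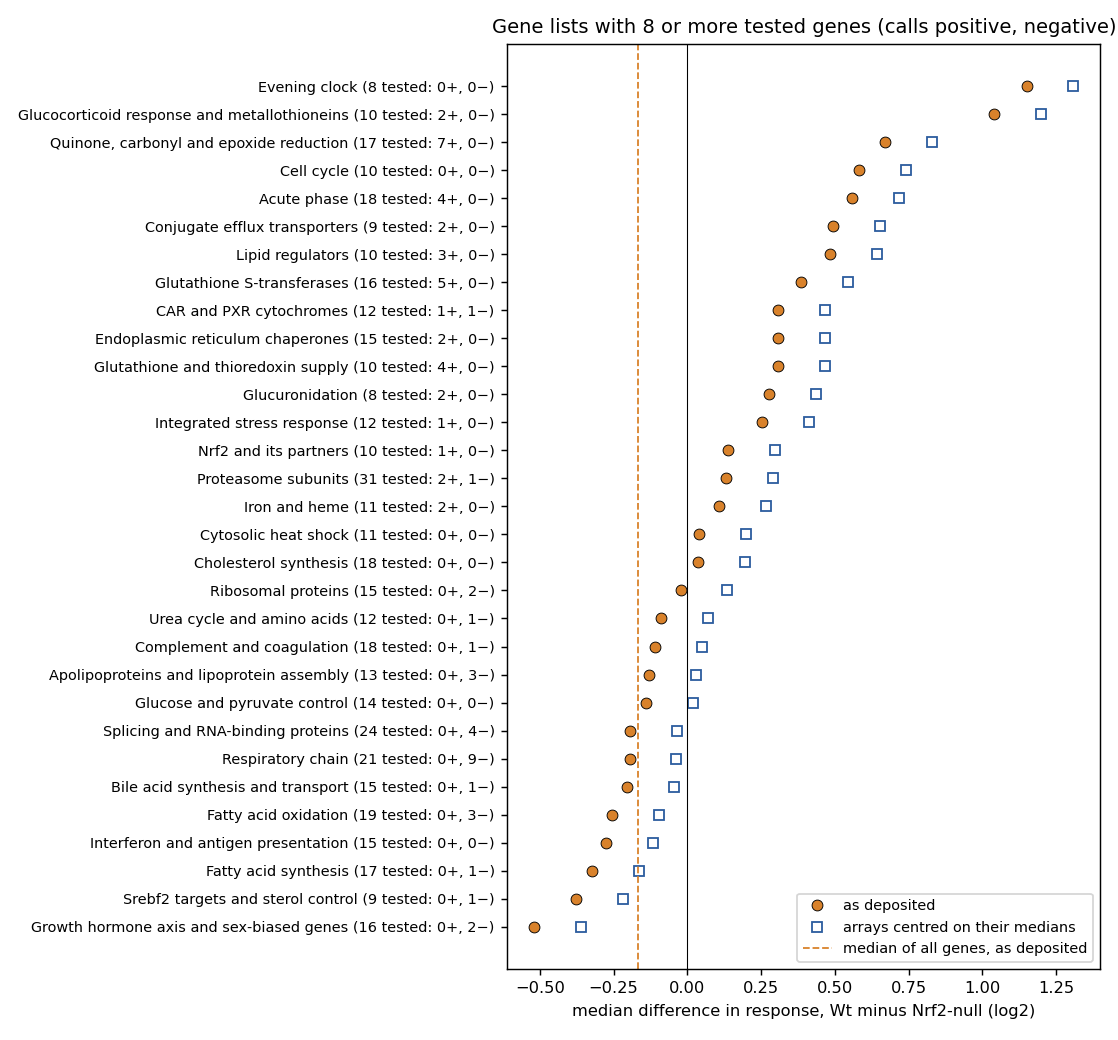
Median difference in response (Wt minus Nrf2-null, log2, horizontal axis) of the gene lists with 8 or more tested genes, as deposited (circles) and with each array centred on its median (squares), with the numbers tested and called positive or negative beside each name. Lists of detoxification lie to the right of the median of all genes at −0.17 (dashed), and the respiratory chain, with 9 negative calls, lies beside it.

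The gap between the genotypes was also set against that in mice on other treatments of the series. Within each genotype the animal numbers at 30 μmol/kg lay in other ranges than those at 10 μmol/kg or with D3T. Number range and treatment cannot be told apart here either. The gap is Wt minus Nrf2-null, and its value at 30 μmol/kg CDDO-Im minus its value at 10 μmol/kg was called for 141 genes (1.45%), 29 positive (0.299%) and 112 negative (1.16%), and after centring for 95, 69 positive and 26 negative. Without both mice with pancreas transcripts 4 genes were called, 2 positive and 2 negative. The single genes below are given for the fit with all mice. The count was 41 and 29 without Nrf2-null CDDO-Im replicates 1 and 4, and 37, 90 and 58 without Wt CDDO-Im replicates 2, 3 and 4. Cbr3 read 3.99 to 4.01 in Nrf2-null and 6.28, 6.12, 4.62 and 4.05 in Wt mice at 10 μmol/kg, so that its gap was larger by 5.06 at 30 μmol/kg (adjusted p = 3.3e-06). Srxn1 had a gap larger by 1.28 (adjusted p = 0.029) and Blvrb by 1.07 (adjusted p = 0.024), whereas Nqo1, at 1.67, was not called (adjusted p = 0.051). The gap of Cyp4a14 moved by −4.10 (adjusted p = 0.0045), from mice that at 10 μmol/kg read 14.47 to 14.79 in Nrf2-null and 13.13 to 13.98 in Wt liver. Against 300 μmol/kg D3T, a dithiolethione activator of Nrf2, 1535 genes were called (15.8%), 249 positive (2.57%) and 1286 negative (13.3%), and after centring 564 positive and 462 negative. Cbr3 (4.93), Nqo1 (1.94), Srxn1 (2.11) and Abcc4 (1.37) had larger gaps with CDDO-Im, as did Lcn2 (6.49), Saa2 (6.07) and Orm2 (5.46). With D3T, Nrf2-null replicate 4 was high, at 14.46 for Lcn2, 14.14 for Saa2, 13.61 for Orm2 and 9.54 for Srxn1. The other Nrf2-null D3T mice read 8.08 to 9.73, 8.90 to 9.67, 9.62 to 10.60 and 7.75 to 7.95 in that order. The gaps against D3T were not tested without this mouse. The clock score ran from −2.82 to 2.10 in Nrf2-null and 2.27 to 4.06 in Wt mice at 10 μmol/kg, and from −2.33 to 1.09 in Nrf2-null and −1.72 to 0.19 in Wt mice with D3T, against −3.45 to −3.06 and −2.68 to −2.41 in those at 30 μmol/kg. With the clock score as a covariate, 72 genes instead of 141 were called for the gap against 10 μmol/kg and 1680 instead of 1535 for that against D3T.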

How the data were processed

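Liver RNA of 40 mice was measured on Affymetrix mouse genome arrays, and the 16 arrays of 4 groups, named by their labels, entered the comparison. The deposited values are log2 intensities of 45037 probe sets, which the authors computed with GCRMA (version, and which arrays it took together: not given in the sources used here). Symbols came from the platform annotation: 34945 probe sets carried 1 symbol, 932 several and 9160 none here. A probe set was kept if 3 or more mice of some group reached log2 4 (18935), and the kept probe set of highest mean stood for a gene (9695 genes, 4125 of them with several). For 34 genes kept probe sets were called in opposite directions. One limma 3.58.1 fit (statmod 1.5.0, R 4.3.3) of the 10 groups of the series, with a variance trend and robust variances, gave all contrasts, and Benjamini-Hochberg adjustment ran over all genes. It was tested on simulated data. Python 3.11.15, NumPy 2.4.6, pandas 2.3.3, SciPy 1.17.1 and Matplotlib 3.10.9 were used for the rest. The number of mice limits the precision. SEs and p-values reflect the spread between mice within groups, pooled over all 10 groups and not only the 4 compared.

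The genes named were the 10 called of largest positive and the 10 of largest negative difference with a group mean of log2 6 or more, the genes the study names for arrays or qPCR, 2 to 4 members of each of 45 lists (592 genes), and others stated as singled out. Members and lists were chosen with earlier results of these data known. Alternatives covered scaling, the minimum, probe sets, the variance model, a replicate block, a clock covariate and leaving out each of the 16 mice of the comparison. Leaving out both mice with pancreas transcripts was added after seeing the data.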

Additional observations from a re-analysis of the deposited data

Results flagged for a closer look

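Single mice stood far from the other 3 of their group in 12 of the 84 groups of values checked by Dixon's test, where chance gives about 5%. These were Lcn2 (10.38) and Orm2 (11.27) in Wt CDDO-Im replicate 1, both low for their group, Cbr3 in Nrf2-null CDDO-Im replicate 4 (4.21) and Nrf2-null vehicle replicate 1 (3.87), both near the floor of the array, and Saa2 (11.78) and Saa1 (13.54), both high, and Cela1 (9.51), low, in Nrf2-null vehicle replicate 2. Marco was high in Nrf2-null CDDO-Im replicate 4 (4.32), Nrf2-null vehicle replicate 4 (3.25) and Wt vehicle replicate 1 (3.25), Dapk2 was high in Nrf2-null vehicle replicate 4 (7.39), and the clock score was high in Nrf2-null vehicle replicate 1 (3.00).

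By the test of the difference itself, the response differed between the genotypes for 1154 genes, and the gap between the genotypes differed from that at 10 μmol/kg CDDO-Im for 141 genes and from that with D3T for 1535. Among called genes with a group mean of log2 6 or more, the largest positive differences in response (Wt minus Nrf2-null, log2) were Lcn2 at 7.15, Cbr3 at 6.29, Saa2 at 5.97, Mt2 at 5.88, Orm2 at 4.34, Saa1 at 4.20, Gstm3 at 4.19, Rgs16 at 4.14, Nqo1 at 3.89 and Marco at 3.20. The largest negative ones were Ighm at −4.26, Cyp4a14 at −3.06, Ror1 at −2.76, Cela1 at −2.65, Id3 at −2.57, Lama3 at −2.52, Plxna2 at −2.36, Gria3 at −2.29, Tspyl4 at −1.95 and Dapk2 at −1.91.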

How the results depend on the processing

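The 1154 differences in response became 617 (319 positive, 298 negative) with arrays centred on their medians and 6.3e+02 (308 and 325) with quantile normalization again. Array weights gave 287 positive genes, the 16 arrays alone 630 negative ones, and leaving out both mice with pancreas transcripts, chosen after seeing the data, 513 (93 and 420). The Nrf2-null response had 34 genes centred, 47 with quantile normalization, 4 with the 16 arrays and 36 with array weights, and the Wt response 1181 and 1161 with the first 2 of these. The genotypes with CDDO-Im differed for 2212 genes without both pancreas mice. The gap against 10 μmol/kg was called for 80 (quantile), 74 (no expression minimum), 78 (mean of probe sets), 973 (array weights), 72 (clock covariate) and 4 genes (pancreas mice left out), and that against D3T for 991 (quantile), 2557 (array weights) and 911 (pancreas mice left out). Without 1 of the 16 mice at a time the counts were 797 to 1298 for the difference (121 to 194 positive, 661 to 1134 negative), 8 to 58 for Nrf2-null, 1690 to 2427 for Wt, 581 to 1178 between the vehicle groups and 2984 to 3858 between the CDDO-Im groups. For the gaps they were 29 to 180 and 1167 to 1669, and no mouse at 10 μmol/kg or with D3T was left out. Without each mouse in turn, 88 of the 173 positive and 467 of the 981 negative calls held every time. Replicate numbers did not pair the mice (correlations of deviations −0.16 to 0.18, 5 of 16 arrays closest to their own number), and the block gave 1147. With the mean of all kept probe sets the sign changed for the genotype difference of Rbm5 (0.1889), the genotype difference of Apoh (0.0093) and the genotype difference of Mtf2 (−0.0379). Of 237 named genes, 111 called, centring ended 35 calls and added 6, and leaving out both pancreas mice ended 54. The number of mice and the low signal of genes near the floor limit these values.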

Other observations

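Abcc12 and Pls1 lay near the floor of the array outside Wt CDDO-Im livers. Abcc12, a transporter of the ABC family, read 3.51, 4.94, 5.82 and 5.39 in Wt CDDO-Im mice and 2.34 to 2.41 in the other 12, a difference in response of 2.50 (limma, adjusted p = 1.8e-05), and its gap between the genotypes was larger by 2.43 than at 10 μmol/kg. Pls1, an actin-bundling protein, read 2.34 to 2.35 in Nrf2-null CDDO-Im and 2.33 to 2.89 in Nrf2-null vehicle mice, against 3.67 to 7.42 in Wt CDDO-Im and 2.34 to 2.65 in Wt vehicle mice (difference 2.93, adjusted p = 0.0058). A different pattern was that of Moxd1, a monooxygenase relative, which read 2.14 to 2.16 in all 8 Nrf2-null mice. In Wt mice it read 9.67, 9.18, 9.08 and 10.19 with CDDO-Im, against 8.24, 8.64, 9.01 and 2.15 with vehicle, and 2.15 to 2.16 in all Wt mice at 10 μmol/kg and with D3T. Its difference in response was not called (2.52, adjusted p = 0.26).

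Among genes whose difference came with a fall by value in Nrf2-null liver, St3gal5, a sialyltransferase, changed by −1.41 in Nrf2-null (adjusted p = 0.064) and 0.60 in Wt liver (difference 2.00, adjusted p = 0.0057). Ip6k2, an inositol kinase, changed by −1.15 and 1.03 (difference 2.18, adjusted p = 0.0046, other probe set 0.56). Serpina7, which carries thyroid hormone, changed by −0.61 and 1.17 (difference 1.78, adjusted p = 0.017). Angptl4, an inhibitor of lipoprotein lipase, changed by −1.56 and 0.82 (difference 2.38, adjusted p = 0.030, not called without any 1 of 6 mice). These genes were chosen after their values were seen.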
